A study of Mus musculus with 4 samples.

Results

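The 49 genes described here encode mitotic kinases, the kinetochore, the spindle checkpoint and the machinery around them. They were picked by symbol from a list with no threshold on a measured value, though with earlier results of these data known. All 49 were found among the 50600 genes counted. RNA sequencing gave their expression in 4 libraries of primary T cells of the mouse strain C57BL/6NJ, which form 1 group of biological replicates 1 to 4 with no second condition. The labels give no treatment, genotype or age, while the names of the alignments in the file headers read Th0, activated, sorted and 72 h for every library. Th0 usually names CD4 T cells activated through the T cell receptor without polarising cytokines, which is background and was not stated in the labels. The libraries share 1 donor entry. Whether the replicates are separate animals or cultures is not labelled, and p-values and SDs measure only the spread between these libraries, whose technical share is not known.

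In a dividing cell the kinetochore is the protein assembly that joins the centromere of each chromosome to spindle microtubules. Aurora and Polo-like kinases build the spindle and correct faulty attachments, and the spindle checkpoint holds back the anaphase-promoting complex, a ubiquitin ligase, until every chromosome is attached. The ligase then triggers the release of sister chromatids. Resting T cells are not dividing, and activation through the receptor drives them into repeated divisions. Many of these genes, though not all, are known to be transcribed mainly in late G2 and mitosis.

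Total counts were 34978213, 118937382, 42274502 and 95356041 read pairs in replicates 1 to 4. Levels are given as TPM (length-corrected shares of each library's transcripts), computed from the deposited counts and the summed exonic length of each gene, as mean ± SD over n = 4 libraries. All 9 T cell markers, led by Trac, Trbc2 and Cd5 at mean levels of 1892, 1567 and 1538 TPM, reached 10 TPM in every library. None of the 6 B cell markers did, led by Cd79b and Cd79a at 2.06 and 1.23 TPM. Of 8 myeloid markers (Adgre1 at 1.48, Cd14 at 1.03 and Mpo at 0.0549 TPM) and 8 stromal ones (Epcam at 3.26, Pdgfrb at 3.22 and Col1a1 at 1.10 TPM) none did either, nor of 5 erythroid ones (Klf1 at 0.900, Hba-a1 at 0.306 and Hbb-bt at 0.268 TPM). Among 6 NK and CD8 T cell markers Cd8b1 did, at 21.4 ± 5.49 TPM, while Cd8a and Gzma had 0.267 and 0.159 TPM. Lyz2, S100a8, S100a9, Col3a1, Cdh5 and Hbb-bs had 0 counts in every library. The summed level per library lay between 8161 and 8600 TPM for the T cell markers, 2.25 and 5.84 for B cell, 1.85 and 3.62 for myeloid, 7.36 and 7.97 for stromal, 1.01 and 2.56 for erythroid, and 17.7 and 30.0 TPM for NK and CD8 T cell markers. Xist, the noncoding RNA of the inactive X chromosome, stood at 278 and 316 TPM in replicates 1 and 2 and at 1.25 and 0.586 TPM in replicates 3 and 4, so these libraries stand apart in this gene although they share a donor entry. In bulk RNA, more dividing cells and more RNA per dividing cell cannot be told apart.

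Sequences of the start regions of these genes are shown first, because a motif named the cell cycle genes homology region (CHR, letters TTTGAA) is known from human and mouse cells as the docking site of the MuvB complex at genes of late cell cycle. The CCAAT box (letters CCAAT) is the site of the activator NF-Y, and TTCCCGC is a form of the site of E2F factors. RefSeq windows of 300 bases, from 250 before to 50 after the gene start (GRCm38.p6, the assembly also called mm10), were given for 43 of the 49 genes. Aurkb, Foxm1, Incenp, Smc4, Spc24 and Tpx2 are not in the table used. Of the genes below, 4 hold CHR and CCAAT letters upstream of the start and Birc5 holds neither, and they were picked with their values known. Each line gives the 250 bases before the start, 5′ to 3′ on the gene's strand, with matches of the 3 motifs on either strand in capitals. A CHR match on the other strand reads TTCAAA. Likewise a CCAAT box on the other strand reads ATTGG.

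Cdc20, chr4:118437344-118437593, minus strand: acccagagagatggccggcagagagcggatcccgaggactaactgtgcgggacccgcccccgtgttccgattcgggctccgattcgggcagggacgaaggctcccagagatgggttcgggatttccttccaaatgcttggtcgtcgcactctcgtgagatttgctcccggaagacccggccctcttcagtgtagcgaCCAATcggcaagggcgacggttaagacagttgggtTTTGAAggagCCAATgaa

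Top2a, chr11:99024190-99024439, minus strand: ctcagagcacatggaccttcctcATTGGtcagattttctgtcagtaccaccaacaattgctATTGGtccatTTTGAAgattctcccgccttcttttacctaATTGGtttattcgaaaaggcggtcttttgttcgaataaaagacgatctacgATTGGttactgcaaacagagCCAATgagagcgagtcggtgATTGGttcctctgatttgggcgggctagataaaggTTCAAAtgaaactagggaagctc

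Mki67, chr7:135716380-135716629, minus strand: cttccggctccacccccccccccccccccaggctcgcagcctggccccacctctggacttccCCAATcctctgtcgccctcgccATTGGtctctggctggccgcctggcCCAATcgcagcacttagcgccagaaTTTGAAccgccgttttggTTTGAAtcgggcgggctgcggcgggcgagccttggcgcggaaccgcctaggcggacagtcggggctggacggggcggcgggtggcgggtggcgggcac

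Espl1, chr15:102296043-102296292, plus strand: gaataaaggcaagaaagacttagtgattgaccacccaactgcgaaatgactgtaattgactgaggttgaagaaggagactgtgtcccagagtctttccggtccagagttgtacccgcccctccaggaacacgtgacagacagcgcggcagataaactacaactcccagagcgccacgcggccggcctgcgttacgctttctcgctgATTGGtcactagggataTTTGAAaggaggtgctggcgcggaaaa

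Birc5, chr11:117848987-117849236, plus strand: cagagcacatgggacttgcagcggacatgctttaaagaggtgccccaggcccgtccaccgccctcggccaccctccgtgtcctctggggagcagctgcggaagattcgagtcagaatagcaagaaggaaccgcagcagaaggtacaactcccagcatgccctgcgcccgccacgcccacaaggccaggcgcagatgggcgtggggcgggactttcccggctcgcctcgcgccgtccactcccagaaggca

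In Cdc20 the CHR letters begin at base -18 and CCAAT boxes at -53 and -8, counted from the first base after the upstream 250 as 0. Top2a has CHR letters at -179 and -23 and 6 CCAAT boxes, Mki67 has CHR letters at -116 and -98, and Espl1 has CHR letters at -27 beside a CCAAT box at -44. Over the 49 windows of the 43 genes (5 genes have more than 1 window), 28 windows (57.1%) held the CHR letters, against 15.2% of 20095 windows of protein-coding genes and 11.9% of 8383 windows of protein-coding genes at 10 TPM or more in every library. CCAAT letters were in 38 windows (77.6%), against 37.8% and 38.0%, and TTCCCGC was in 7 (14.3%), against 6.14% and 8.95%. CHR and CCAAT letters occurred together in 25 windows (51%), against 6.09% and 4.95%. Windows with none of the 3 motifs made up 14.3% of the member windows, against 49.6% and 50.1%, and belong to 7 genes, namely Birc5, Mad2l1, Melk, Ncaph, Nuf2, Nusap1 and Pttg1. Motifs of different kinds overlapped in 2 member windows.

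The position of the CHR letters also differed. Their 34 matches in the member windows had a median first base of -7, and 76.5% began within 50 bases of the start, whereas the 3487 matches in windows of protein-coding genes had a median of -136 and 22.3% began that near. For the CCAAT box the 75 member matches had a median of -71, and 34.7% lay within 50 bases, against -90 and 26.8%. A site shared by overlapping windows of the same gene, as in Bub3, Ect2 and Prc1, is counted in each window. With the length of all exons, the 25 genes with CHR letters had a median level of 79.2 TPM and the 18 without had 49.4 TPM. These levels depend on the length used, and this comparison was not repeated with another length. These are descriptions of letters in a window, without a test, and absence says only that these letters are not there.

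**Figure D1:**
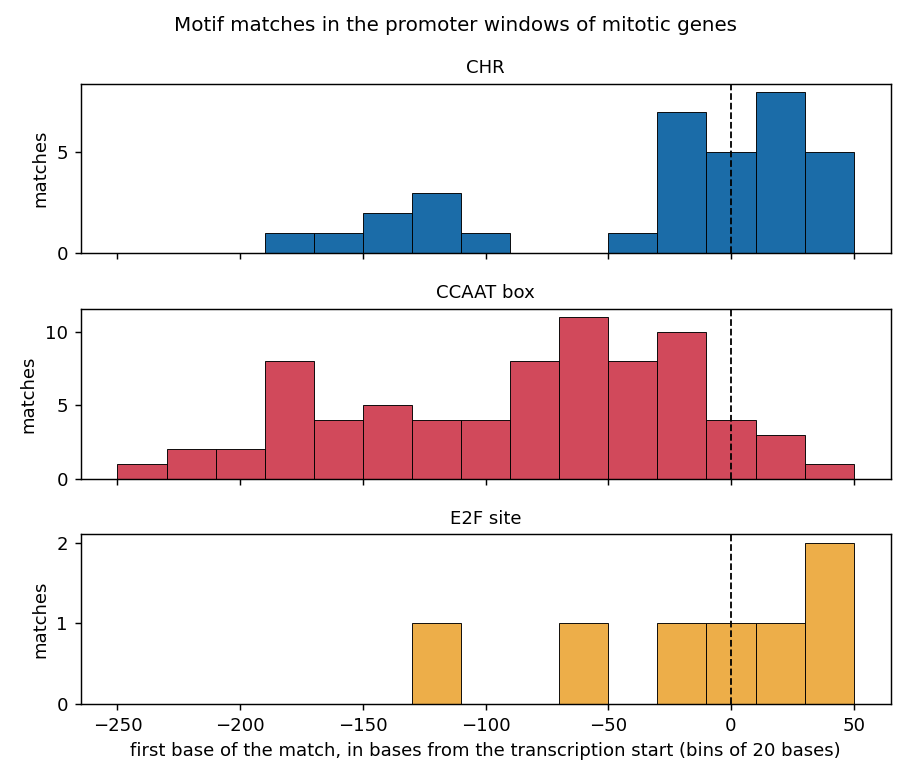
Number of matches (vertical axis) of the CHR, CCAAT and E2F motifs, from top to bottom, in the 49 start windows of the mitotic genes, by distance in bases of the first base of the match from the gene start (dashed line), in bins of 20 bases. Of the 34 CHR matches 76.5% begin within 50 bases of the start, while the 75 CCAAT matches are spread upstream with a median of -71.

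All 49 genes reached 10 TPM in every library, and 16 of them (32.7%) reached 100 TPM in every library. Among 21751 protein-coding genes, 37.8% and 8.57% passed the same levels, without a test. The 49 genes were chosen with earlier results of these data known. The median of the 49 genes was 66.5, 72.2, 70.4 and 68.1 TPM in replicates 1 to 4 (69.3 ± 2.53 TPM), where the median protein-coding gene had 1.43 TPM. Together they contributed 4310 ± 186 TPM. Levels spanned 33.01-fold, with Cdc20 highest and Anln lowest, and 17 of the genes lay above the 90th percentile of protein-coding genes. Even Anln stood above 61.8% of protein-coding genes. Ordered by mean level, 20 of the 48 pairs of neighbours kept the same order in all 4 libraries and 28 did not, so those 28 neighbours are not distinguished here. The 7 highest genes, from Cdc20 to Ube2c, kept their order in all 4 libraries at this length.

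**Figure D2:**
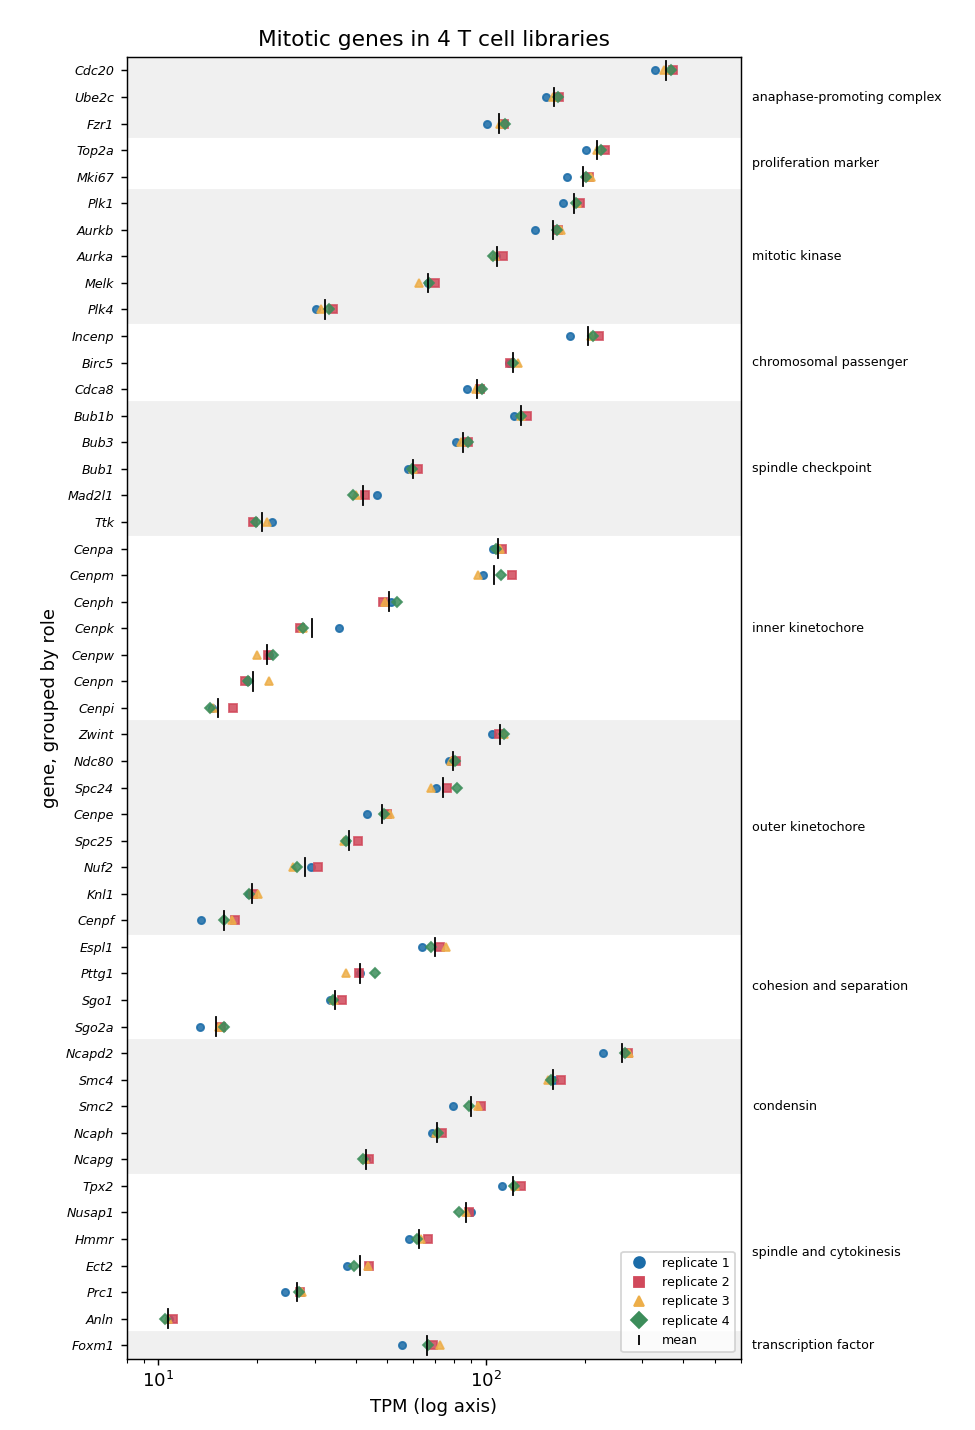
Level of each of the 49 genes in TPM on a log axis, grouped by role, with a point for each of the 4 libraries and a bar for the mean. Cdc20 is highest at 354 TPM and Anln lowest at 10.7 TPM.

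The proliferation markers came near the top. Mki67, the coat protein of mitotic chromosomes that is widely used as a marker of dividing cells (mm10 chromosome 7, 135689784 to 135716361, minus strand), had 176, 206, 209 and 202 TPM in replicates 1 to 4. Top2a, the topoisomerase that untangles sister chromatids (chromosome 11, 98992943 to 99024189, minus strand), had 201, 231, 218 and 224 TPM. Mki67 lay below Top2a inside each library, by -0.14 ± 0.06 on the log2(TPM + 0.1) scale. Without the length correction, in counts scaled to the library total (CPM), that difference was 0.015 and had no common direction. With the length of the principal transcript (the main annotated isoform) in place of all exons, an alternative chosen after the data were seen, it was -0.93, still lower in 4 of 4 libraries.

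Mitotic kinases had a median of 108 ± 3.26 TPM. Plk1, the Polo-like kinase of mitotic entry and spindle assembly (chromosome 7, 122159439 to 122169873, plus strand), had 172, 194, 189 and 188 TPM, with replicate 1 lowest. Plk4, which starts the duplication of centrioles, had 30.2, 34.03, 31.4 and 33.1 TPM. Plk1 exceeded Plk4 by 2.53 ± 0.04 log2 in 4 of 4 libraries, by 1.55 with the principal transcript length and by 0.89 in CPM. It exceeded Aurka by 0.78 ± 0.07.

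Aurkb, the Aurora kinase of centromeres and the midzone (chromosome 11, 69045647 to 69051664, plus strand), had 141, 165, 169 and 165 TPM, so replicate 1 lay apart from the other libraries. Aurka, the Aurora kinase of spindle poles (chromosome 2, 172356190 to 172370535, minus strand), had 107, 113, 107 and 105 TPM. The groups of values did not overlap, and Aurkb lay 0.57 ± 0.12 log2 above Aurka, least in replicate 1 at 0.40. Aurkc, the germ cell member of the family, had only 0, 9, 2 and 8 counts, and no fold is given against it. Melk, a kinase of dividing and embryonic cells, averaged 66.4 ± 3.08 TPM.

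Spindle checkpoint genes had a median of 59.7 ± 1.81 TPM and differed among themselves. Bub1b encodes BubR1, which binds and blocks Cdc20, and had 122, 134, 128 and 128 TPM. Bub1, the kinase that brings checkpoint proteins to the kinetochore, had 57.6, 62.0, 59.8 and 59.6 TPM. Bub1b exceeded Bub1 by 1.08, 1.11, 1.09 and 1.10 log2 in replicates 1 to 4, a difference of 1.10 ± 0.01 whose spread was the smallest of the 20 pairs compared.

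Bub3, the partner that carries both to the kinetochore, had 81.1, 87.9, 83.7 and 88.3 TPM. Mad2l1 encodes Mad2, the protein that captures Cdc20 in the checkpoint, and had 46.6, 42.7, 40.0 and 39.3 TPM, highest in replicate 1. Mad2l1 lay -1.02 ± 0.16 log2 from Bub3, thus lower in 4 of 4 libraries, and -2.52 with the principal transcript length. Ttk, the kinase Mps1 that starts checkpoint signalling, was lowest of the checkpoint genes with 22.3, 19.5, 21.5 and 19.8 TPM, and differed from Bub1 by -1.52 ± 0.13 log2.

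The chromosomal passenger complex brings Aurkb to centromeres through Incenp, Birc5 and Cdca8. Incenp, its scaffold, had 180, 221, 209 and 211 TPM. Birc5, the subunit survivin, had 118, 119, 125 and 121 TPM, and Cdca8, the subunit borealin, had 87.3, 96.1, 93.5 and 97.1 TPM. Birc5 differed from Incenp by -0.76 ± 0.12 log2 and Cdca8 by -1.13 ± 0.06, both lower in 4 of 4 libraries. Both directions reversed, to 1.09 and 0.55, with the principal transcript length, and in CPM the difference of Cdca8 was -0.45.

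Inner kinetochore genes had a median of 29.5 ± 4.16 TPM, the lowest of the roles with the length of all exons. With the principal transcript length the median of their means was 41.2 TPM, and cohesion and separation genes, at 37.1 TPM, were lowest. Cenpa, the histone variant that marks the centromere, had 105, 112, 110 and 108 TPM. Cenpm and Cenph, subunits of the network that reads this mark, averaged 106 ± 11.7 and 50.6 ± 2.29 TPM. Cenpm had 98.1, 120, 94.2 and 111 TPM and Cenph had 51.2, 48.6, 49.2 and 53.7, without overlap. Cenpk, their partner, had 35.7 TPM in replicate 1 and 27.0, 27.6 and 27.6 TPM in replicates 2 to 4, which set replicate 1 apart.

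Cenpn, which contacts the centromeric nucleosome, had 18.7, 18.4, 21.8 and 18.8 TPM, and Cenpa exceeded it by 2.48 ± 0.11 log2, by 3.59 with the principal transcript length and by 3.31 in CPM. Cenpi, the lowest of the inner genes, had 14.6, 16.9, 14.7 and 14.4 TPM, with replicate 2 highest. Cenpw, a histone-fold subunit, averaged 21.4 ± 0.996 TPM.

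Outer kinetochore genes, which bind microtubules, had a median of 43.2 ± 2.07 TPM. Zwint, a partner of Knl1, had 105, 109, 114 and 114 TPM, while Knl1, the scaffold on which checkpoint proteins gather, averaged 19.3 ± 0.581 TPM. Of the 4-subunit Ndc80 complex, the main coupler to microtubules, Ndc80 had 77.3, 80.7, 78.3 and 80.6 TPM and Spc24 had 70.4, 75.9, 68.1 and 81.4. These values overlap between the genes at this length, whereas with the principal transcript length Spc24 stood at 97.4 and Ndc80 at 55.4 TPM. Ndc80 has 2201 bases by either length, and its lower TPM there comes from rescaling over all genes.

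Spc25 had 37.3, 40.7, 37.0 and 37.4 TPM and differed from Spc24 by -0.95 ± 0.11 log2. Nuf2 had 29.2, 30.8, 25.8 and 26.4 TPM and differed from Ndc80 by -1.50 ± 0.12 log2. With the principal transcript length this difference shrank to -0.10 and was negative in 3 of 4 libraries. In CPM it was 0.025, positive in 2 libraries and negative in 2. Cenpe, the kinesin motor of the outer kinetochore, averaged 48.2 ± 3.33 TPM. Cenpf, a large microtubule-binding protein, was the lowest of the outer genes with 13.5, 17.1, 16.7 and 15.9 TPM.

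Among genes of cohesion and separation, Espl1 encodes separase, the protease that cuts cohesin, and had 63.9, 72.2, 75.4 and 68.1 TPM. Pttg1 encodes securin, which holds separase inactive until anaphase, and had 41.3, 40.9, 37.3 and 45.8 TPM. Pttg1 differed from Espl1 by -0.76 ± 0.20 log2, which turned to 0.32 with the principal transcript length and was -2.48 in CPM. Sgo1, the shugoshin that guards centromeric cohesin in mitosis, had 33.3, 36.4, 34.3 and 34.2 TPM, and its relative Sgo2a had 13.4, 15.5, 15.3 and 15.9 TPM. Sgo2a differed from Sgo1 by -1.20 ± 0.09 log2, and by -0.32 in CPM.

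The genes around the anaphase-promoting complex had a median of 161 ± 6.57 TPM. Cdc20, its mitotic activator and the target of the checkpoint (chromosome 4, 118432901 to 118437352, minus strand), had 328, 372, 349 and 367 TPM. Fzr1, the activator Cdh1 that takes over at mitotic exit, had 101, 114, 110 and 115 TPM, and Cdc20 exceeded it by 1.69 ± 0.02 log2, or by 0.43 in CPM. Ube2c, the ubiquitin-conjugating enzyme of the complex, had 152, 167, 160 and 165 TPM, all above Fzr1.

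Of the spindle and cytokinesis genes (median 51.8 ± 3.10 TPM), Tpx2, which activates Aurka on microtubules, had 112, 128, 122 and 122 TPM. Nusap1, a microtubule-bundling protein, had 89.7, 88.4, 86.6 and 82.7 TPM, and Hmmr, a spindle pole protein, had 58.3, 66.3, 63.3 and 61.7. Ect2, the exchange factor that starts the cleavage furrow, averaged 41.2 ± 3.01 TPM and Prc1, the bundler of the midzone, 26.4 ± 1.37. Anln, the scaffold anillin of the cleavage furrow, had 10.7, 11.04, 10.7 and 10.5 TPM, and it was the lowest of all 49 genes. Foxm1, a transcription factor of late cell cycle genes, had 55.2, 69.0, 72.5 and 66.5 TPM, lowest in replicate 1.

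Condensin compacts mitotic chromosomes. Ncapd2, a regulatory subunit of condensin I (chromosome 6, 125168007 to 125191701, minus strand), had 227, 272, 272 and 266 TPM, with replicate 1 low. Smc4 and Smc2, the paired ATPase subunits, were apart, Smc4 with 161, 169, 154 and 158 TPM and Smc2 with 79.3, 96.7, 94.8 and 88.7. Smc2 differed from Smc4 by -0.84 ± 0.13 log2. Ncaph, the kleisin subunit, had 68.3, 73.4, 70.4 and 71.3 TPM, and Ncapg, a regulatory subunit, had 43.1, 43.8, 42.8 and 42.2.

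Against the matching subunits of condensin II, the form resident in the nucleus, the order varied with the subunit. Ncapd2 exceeded Ncapd3, at 46.6 ± 1.59 TPM, by 2.47 ± 0.08 log2. Ncapg differed from Ncapg2, at 73.8 ± 4.99 TPM, by -0.78 ± 0.09, and Ncaph from Ncaph2, at 272 ± 19.7 TPM, by -1.94 ± 0.06. Exons of Ncapd2 share 3.78% of their bases with Scarna10 and 3.75% with Gm28967 on the same strand, Foxm1 shares 2.50% with Tex52 and 1.69% with Gm44596, and Top2a shares 1.35% with Gm23451, so reads there can be lost. Sgo2a and Ube2c share 35.04% and 22.8% with Kctd18 and Tnnc2 on the opposite strand, which the strand-specific counting keeps apart.

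All 20 pairs compared within libraries kept their direction in 4 of 4 libraries. In the exact two-sided sign-flip permutation test, 2 of the 16 possible sign patterns are as extreme as the observed one for every pair, which is the smallest share that 4 libraries allow, so no pair can pass 0.05 before or after adjustment over the 20 pairs. The differences rest on the length used for each gene, and 8 of the 20 pairs moved by over 1.5 times with the principal transcript length and 7 in CPM, with the values given above. With the principal transcript, 9 genes had a TPM over 1.5 times higher. They were Cenpa at 304, Birc5 at 303, Ube2c at 303, Cdca8 at 208 and Bub3 at 188 TPM. Spc25 at 71.1, Nuf2 at 51.8, Prc1 at 50.2 and Cenpw at 41.2 TPM complete the 9. Cdc20 was at 258 TPM, no longer the highest. TPM is rescaled over all genes with these lengths, so genes of unchanged length move too. Mki67 and Plk1, with the same length in both, stood at 0.70 of their former TPM, and Cdc20 at 0.73. The list of 9 includes this change of scale, and relative to genes of unchanged length it would be longer.

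**Figure D3:**
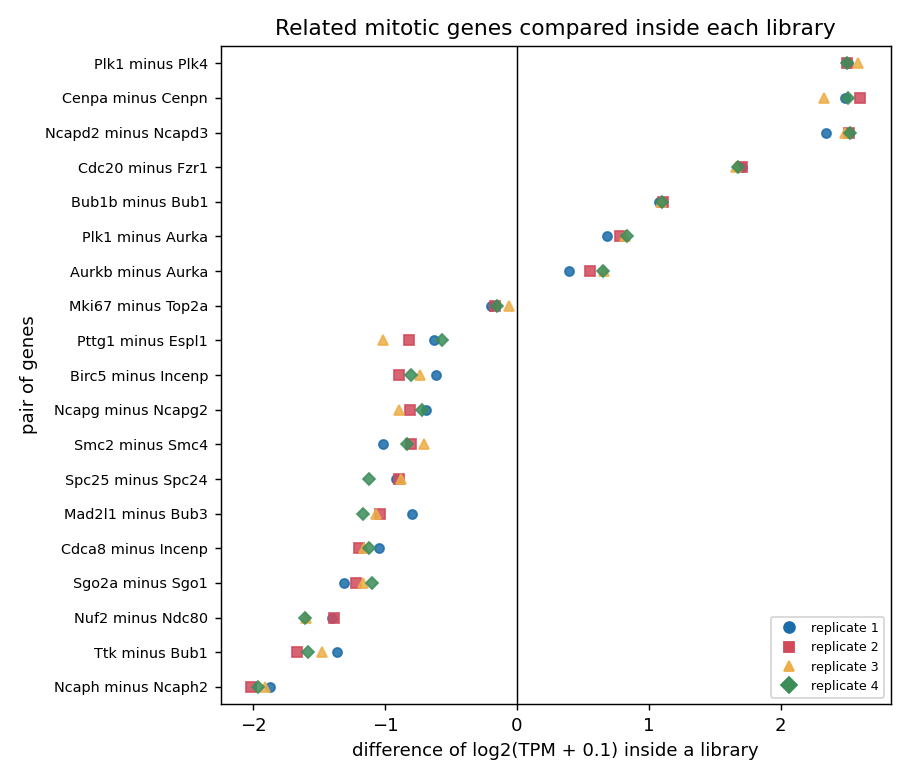
Difference of log2(TPM + 0.1) inside each library for pairs of related genes, with a symbol for each of the 4 libraries; the pair of Aurkb and Aurkc is left out because of the low counts of Aurkc. The symbols of each pair lie on the same side of 0, and the pair of Bub1b and Bub1 is the tightest at 1.10 ± 0.01.

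**Figure D4:**
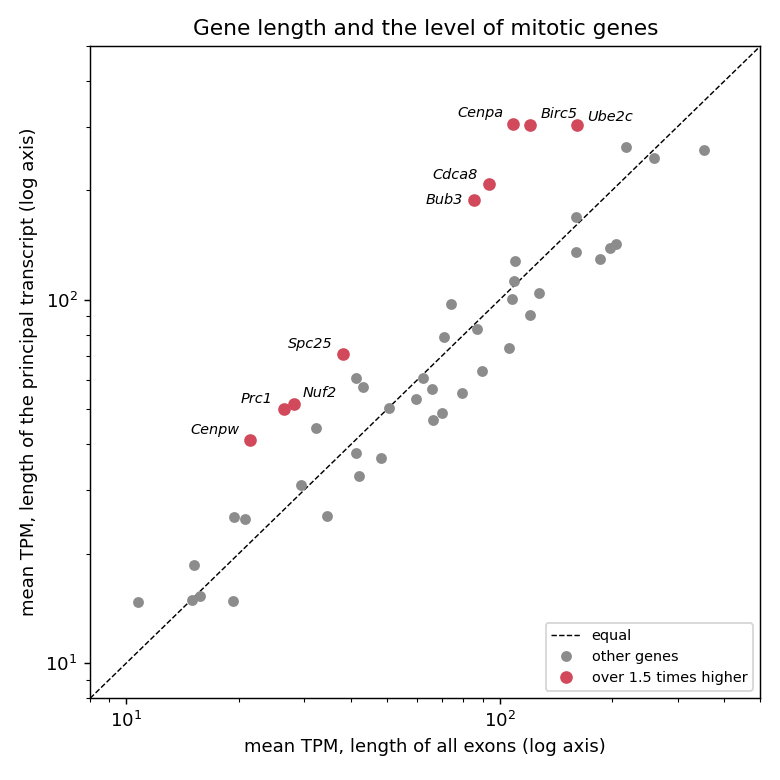
Mean TPM of each of the 49 genes with the length of the principal transcript (vertical log axis) against the length of all exons (horizontal log axis), and a dashed line of equality. The 9 named genes lie over 1.5 times above the line, with Cenpa at 304 against 109 TPM. TPM is rescaled with the new lengths, so a gene of unchanged length, such as Mki67, lies below the line at 0.70 of its level.

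Genes for members of the same complex were not at equal levels. The highest exceeded the lowest by 2.85 ± 0.248-fold in the Ndc80 complex, 2.19 ± 0.0978-fold in the chromosomal passenger complex and 6.04 ± 0.513-fold in condensin I (SD, n = 4 each). It did so by 6.97 ± 0.545-fold among Cenph, Cenpi, Cenpk and Cenpm and by 8.46 ± 0.982-fold in the mitotic checkpoint complex, from Cdc20 to Mad2l1. With the principal transcript these folds were 1.90, 2.14, 4.30, 3.96 and 7.94, and in the passenger complex Birc5 was then highest and Incenp lowest.

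In the edgeR goodness-of-fit test for genes more variable between libraries than others of their level, 0 of the 49 were called at an adjusted p of 0.05, where 0.463% of the 14269 genes tested were called. The count of 0 is therefore near the share over all genes and is no result about the 49 genes. At an unadjusted level of 0.05 there was 1 member of the 49, Mad2l1 (edgeR adjusted p = 0.76), beside 812 of the 14269 genes tested. Passing that level therefore does not set Mad2l1 apart. Cenpk had an edgeR adjusted p of 0.921. The count of members called was also 0 with DESeq2 size factors, without the filter, with a common dispersion and without each library in turn. Over all genes tested, 6.69% were called with a common dispersion and 0.27% to 0.456% in the other settings. The 0 of 49 with a common dispersion was not tested against that share. The coefficient of variation of TPM lay between 1.51% and 14.1%, with a median of 5.39% against 6.18% for protein-coding genes at 10 TPM or more. The median SD of log2 CPM was 0.064 for the 49 genes, 0.0827 for those protein-coding genes and 0.119 for all genes tested.

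Small shifts between libraries depended on the scaling. In TPM, replicate 1 was the lowest library for 31 of 49 genes (63.3%), and for 54.2% of protein-coding genes at 10 TPM or more. After TMM scaling, replicate 1 was lowest for 18 genes and replicate 3 for 22, where the shares of protein-coding genes at 10 TPM or more were 31.8% and 34%. The median centred log2 CPM of the 49 genes was -0.0033, 0.029, -0.037 and 0.0071 in replicates 1 to 4, beside -0.001, 0.0033, 0.0028 and 0.0021 for all genes tested. In replicate 2, 39 of the 49 genes lay above 0, as did 51.7% of all genes tested, and in replicate 3 there were 15, beside 50.7% of all genes. After correction for gene length and GC content the medians were -0.012, 0.027, -0.029 and 0.010.

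**Figure D5:**
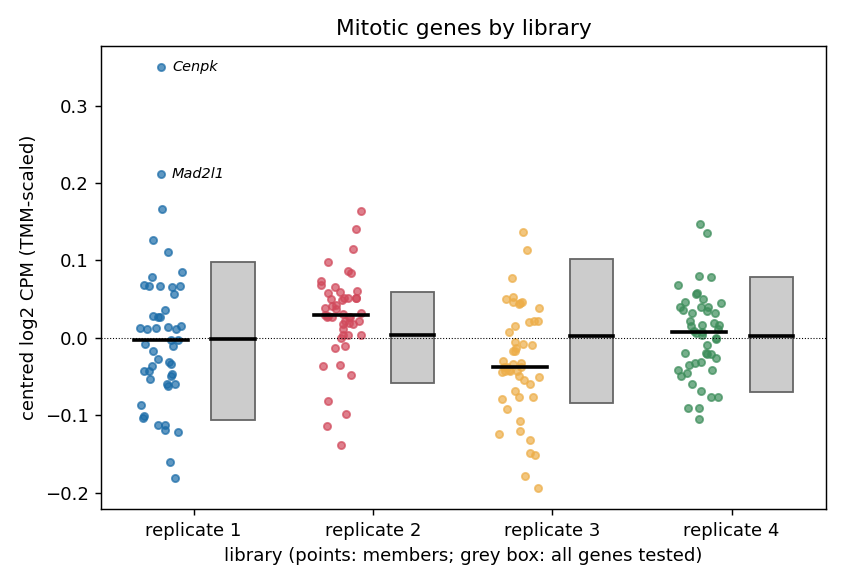
Centred log2 CPM after TMM scaling of each of the 49 genes (points) in the 4 libraries, with the median as a black line, beside the quartiles and median of all 14269 genes tested (grey box). The medians of the 49 genes lie between -0.037 and 0.029, and Cenpk and Mad2l1 are the highest points in replicate 1.

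Related genes outside the 49 were mostly at 10 TPM or more too. All 31 other kinetochore genes reached 10 TPM in every library (median 40.7 ± 0.621 TPM), led by Hjurp, the chaperone of Cenpa, at 193 ± 20.5, Cenpx at 179 ± 11.1 and Cenpb at 88.6 ± 1.43 TPM. All 14 genes of condensin II and cohesin did, led by Ncaph2, Rad21 at 271 ± 8.08 and Smc1a at 135 ± 12 TPM, the last 2 being cohesin subunits. All 13 genes of mitotic entry did, with the cyclins Ccna2 at 186 ± 6.32 and Ccnb2 at 178 ± 7.48 TPM and the Cdk1 inhibitory kinase Pkmyt1 at 150 ± 15.6 TPM.

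Of 16 genes for subunits and partners of the anaphase-promoting complex, 15 reached 10 TPM in every library. They were led by Anapc5 at 314 ± 12.8, Anapc2 at 157 ± 12.2 and Cdc16 at 81.3 ± 3.22 TPM, while Anapc10 averaged 8.93 ± 1.03 TPM. Of 10 MuvB and DREAM genes, which repress and activate late cell cycle promoters, 9 did, led by E2f4 at 301 ± 20.5, Tfdp1 at 281 ± 12.6 and Rbbp4 at 145 ± 5.98 TPM, with Lin9 at 9.06 ± 0.221 TPM. Among 11 meiotic and germline paralogs none did. Rec8 had 7.74 ± 1.46 TPM and Stag3 1.80 ± 0.407, both meiotic cohesin subunits, and Cdc20b had 0.164 ± 0.110. The other members with counts stayed below 1 TPM, and Smc1b, Rad21l, Sgo2b, Sycp1, Sycp2 and Meikin had 0 counts in all 4 libraries, which allows up to 3 counts or 0.0252 CPM in the deepest library, for counting error only. The genes of these lists were chosen with earlier results known, and the edgeR test called 0 of those that passed its filter on low counts, which only 2 of the 11 paralogs did.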

How the data were processed

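RNA was sequenced in 4 T cell libraries of 1 group. The authors deposited unnormalized fragment counts for each gene. Per the file headers, featureCounts 1.4.6-p4 made them over GENCODE M13 exons (mm10), for reverse-stranded pairs. Alignments came from STAR (version not given in the sources used), and options for multiply mapped or overlapping reads were not set. The labels call the assay total RNA, while the linked library protocol is named for polyadenylated RNA. Symbols and gene classes came from GENCODE M21 by identifier (50376 of 50600 genes, 99.6%). Pairs of libraries differed by a chi-square of 26.7 to 76.1 per degree of freedom, so none were counted as duplicates.

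TPM was computed from counts and exonic length. Variability was tested with edgeR 4.0.16 in R 4.3.3 (filterByExpr, TMM, trended dispersion, goodness of fit, Benjamini-Hochberg at 0.05), and the scripts were tested on simulated data. Log2 CPM used a prior count of 2. Genes were compared inside libraries on log2(TPM + 0.1), which understates differences of low genes. Alternatives were CPM, a pseudocount of 1, TPM over protein-coding genes, DESeq2 1.42.0 size factors, no filter, a common dispersion, a length and GC correction, leaving out each library, and, added later, the length of the principal transcript. The named-gene rule takes all 49 genes and, from each list, the 3 with the highest mean TPM (1 of these is not reported here), while Xist and other list genes named fall outside it and were chosen after their values were seen. Members and lists were chosen with earlier results of these data known. Lowest member count in any library was 654.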

Additional observations from a re-analysis of the deposited data

Results flagged for a closer look

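Of 105 values examined over the 4 libraries, 11 had a library far from the other libraries by Dixon's test, which flags about 1 in 20 groups by chance, or 5.25 here. The library was replicate 1 in 5, replicate 2 in 3, replicate 3 in 2 and replicate 4 in 1.

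Replicate 1 was low for Aurkb (141.3 TPM, others 164.8 to 169.0), Ncapd2 (227.3, others 266.0 to 272.2), Pkmyt1 (126.2, others 156.3 to 159.0) and Trac (1755, others 1926 to 1949). In TPM, replicate 1 was also the lowest library for 54.2% of protein-coding genes at 10 TPM or more. Whether the low values above exceed that shift was not tested. Replicate 1 was high for Cenpk, at 35.68 TPM against 27.00 to 27.57 in the others. Replicate 2 was high for Cenpi (16.93 TPM, others 14.40 to 14.66), Spc25 (40.69, others 36.95 to 37.35) and Epcam (3.471, others 3.170 to 3.213). Replicate 3 was high for Cenpn, at 21.78 TPM against 18.36 to 18.76. In replicate 3 the difference of Plk1 from Plk4 was 2.586 log2, against 2.501 to 2.510 in the others. In replicate 4 that of Spc25 from Spc24 was -1.121 log2, against -0.914 to -0.8807.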

How the results depend on the processing

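All 49 genes stayed at 10 TPM or more with the principal transcript length, and 0 of 49 were called variable under every setting run. Over all genes, the 66 calls (0.463%) became 955 (6.69%) with a common dispersion and 41 to 68 without 1 library each, the lowest without replicate 1. The median level of 69.3 TPM was 95.8 as CPM, 76.7 as TPM over protein-coding genes and 68.3 to 70.2 without 1 library each. It was 62 with the principal transcript length, which also changes the TPM scale. On the protein-coding scale 46 of 49 gene means moved by at least 1 SD, and leaving out a library moved none that far. The range of the members' median between libraries, 0.066 log2, was 0.036 to 0.067 without 1 library each, the lowest without replicate 3. Of the 20 pairs, CPM, where no length is divided out, left 2 without a common direction. They were Mki67 against Top2a (0.015, exact sign-flip p = 0.875) and Nuf2 against Ndc80 (0.025, exact sign-flip p = 0.75). Each was positive in 2 libraries and negative in 2. The principal transcript length reversed Birc5 against Incenp (1.09), Cdca8 against Incenp (0.55) and Pttg1 against Espl1 (0.32), by its own construction. With that length Nuf2 against Ndc80 (-0.10) was negative in only 3 of 4 libraries. A pseudocount of 1 and leaving out a library reversed no pair. The lowest count of a member in a library was 654, while genes at 0 counts are known only to the limits given.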
